A study of Drosophila melanogaster with 2 samples.

Results

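The genes described here are 34 genes of the dorsoventral axis, the mesoderm and the muscle of Drosophila melanogaster, taken by name from a list. They were located among 13945 protein-coding genes. Each was assigned a role here, giving 15 dorsoventral regulators, 6 mesoderm regulators and 13 genes of muscle structure. Placed with the dorsoventral genes were wor, esg and vn, which also act elsewhere. A peak was given to a gene when its summit lay inside the annotated gene or within 5 kb of it. Peaks of extra macrochaetae (emc) were mapped by chromatin immunoprecipitation and sequencing in whole embryos aged 0 to 24 h, males and females together. The embryos came from a transgenic line that stably expressed emc with GFP at its C-terminus, and an antibody against GFP was used on chromatin sonicated to 200 to 800 bp. All samples formed 1 group, of 2 replicates numbered 1 and 3 that the labels call biological without describing separate collections. No control library was among the samples, and no wild-type or mutant embryos were compared. Whole embryos mix mesoderm, muscle and all other tissues, so binding in few cells and weak binding in many cells cannot be told apart.

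The Rel protein Dorsal enters ventral nuclei of the early embryo in a graded manner. With the bHLH protein Twist and the zinc finger protein Snail, it divides the dorsoventral axis into mesoderm, neural ectoderm and dorsal ectoderm. The last forms where BMP signalling is high. Twist then starts the mesodermal programme, in which FGF signalling spreads the cells, the homeodomain proteins Tinman and Bagpipe mark heart and gut muscle, and Mef2 switches on the genes of the contractile apparatus. The emc protein is a helix-loop-helix protein of the Id kind with no basic region, known for holding bHLH proteins such as Daughterless in dimers that do not bind DNA.

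Each replicate list held 30000 peaks, the list pooled over replicates 29400, and the list kept by the irreproducible discovery rate (IDR), which measures how well the ranks of peaks repeat between replicates, 1865. A peak's signal is the value the authors' peak caller gave it, and rank 1 is the highest signal of a list. Signals were compared only within a list, and the read depth of the libraries is unknown. Pooled peaks that overlapped no IDR peak, 27229 in all, are called weaker peaks. The pooled list, like those of the replicates, was deposited as peaks and background for the IDR step. Only 5.85% of all weaker peaks had a deposited q-value below 0.05, and 8 of the 211 in the windows described here (3.79%), so most weaker peaks named in the text are not called at that level. The 8 lay in the windows of pyr, sim, vn, htl, dl and tin, 1 each, and of Tm1, with 2. That in the vn window was 155 bp from a start of S6k and 34888 bp from that of vn, and was found in replicate 3 alone. The one in the tin window was 60 bp from a start of mod(mdg4). The lowest signal of an IDR peak was 62.7 and the median 94.2. Intervals of shares are 95% Clopper-Pearson intervals (exact) for counting error alone, and genes that share peaks are not independent. Neighbouring pooled peaks that overlap the same replicate peak are not independent either, and each was counted. All coordinates are dm6 and counted from 1.

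Few of the 34 genes had a peak that passed the IDR threshold. An IDR summit lay in the gene or within 5 kb at 6 genes, 17.6% (interval 6.76 to 34.5), beside 28.6% of all protein-coding genes. They were sog and vn of the 15 dorsoventral genes, ths and Mef2 of the 6 mesoderm genes, and Tm1 and sls of the 13 muscle genes. The interval holds the value over all genes, so within 5 kb this count of 34 genes showed no difference in either direction. Inside the annotated gene a summit was found at 4 of them, 11.8%, beside 6.03% of all genes. Within 500 bp of an annotated start of the gene itself, the share was 1 of 34, 2.94% (interval 0.0744 to 15.3), beside 10.6%. That gene was sls.

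Some of the peaks described are shown as the 201 bp around the summit, read from the plus strand of the Release 6 (dm6) genome. Their letters can be compared with the motif searches described further on. The peaks at Mef2, the strongest of all among them, and those at ths and pyr are not shown. Capitals mark an E-box, CANNTG, the core bound by bHLH dimers, or the DNA replication-related element, TATCGATA. The first 5 are IDR peaks and the other 2 weaker peaks.
sog intron, stronger, chrX:15622985-15623185: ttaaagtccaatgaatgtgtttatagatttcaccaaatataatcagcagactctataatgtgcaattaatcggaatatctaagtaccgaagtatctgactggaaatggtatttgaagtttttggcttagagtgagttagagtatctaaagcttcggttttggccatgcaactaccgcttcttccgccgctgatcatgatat
sog intron, weaker of the pair, chrX:15619368-15619568: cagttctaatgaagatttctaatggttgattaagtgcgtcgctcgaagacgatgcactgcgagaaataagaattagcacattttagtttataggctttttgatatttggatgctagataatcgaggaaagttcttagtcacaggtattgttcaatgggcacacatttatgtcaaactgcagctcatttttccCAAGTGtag
vn intron, chr3L:5824115-5824315: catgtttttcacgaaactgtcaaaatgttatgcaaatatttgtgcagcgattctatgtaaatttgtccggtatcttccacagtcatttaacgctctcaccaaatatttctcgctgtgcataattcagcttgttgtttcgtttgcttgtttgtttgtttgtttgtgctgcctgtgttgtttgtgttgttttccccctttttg
sls own promoter, chr3L:2115773-2115973: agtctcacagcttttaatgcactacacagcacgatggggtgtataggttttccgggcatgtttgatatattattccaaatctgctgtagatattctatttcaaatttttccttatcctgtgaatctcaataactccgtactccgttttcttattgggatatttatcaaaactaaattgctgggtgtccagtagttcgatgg
Cp190 promoter in the Tm1 window, chr3R:15275263-15275463: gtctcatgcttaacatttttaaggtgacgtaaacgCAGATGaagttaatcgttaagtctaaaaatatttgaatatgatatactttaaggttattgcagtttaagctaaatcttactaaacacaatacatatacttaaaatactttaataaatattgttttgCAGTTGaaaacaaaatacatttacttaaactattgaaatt
sim intron, below the threshold, chr3R:13068155-13068355: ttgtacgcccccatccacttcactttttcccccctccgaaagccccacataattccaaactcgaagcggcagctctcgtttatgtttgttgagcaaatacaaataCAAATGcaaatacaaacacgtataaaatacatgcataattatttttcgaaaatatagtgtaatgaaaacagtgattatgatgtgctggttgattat
mod(mdg4) promoter in the tin window, below the threshold, chr3R:21377361-21377561: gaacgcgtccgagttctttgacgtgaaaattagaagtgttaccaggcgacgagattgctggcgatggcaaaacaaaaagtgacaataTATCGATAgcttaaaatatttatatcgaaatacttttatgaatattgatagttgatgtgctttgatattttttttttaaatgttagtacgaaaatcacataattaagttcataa
The stronger sog peak, the vn peak and the sls peak hold no E-box, the other sog peak and the sim peak hold 1, and the Cp190 peak holds 2. The mod(mdg4) peak holds the replication-related element and no E-box. Among IDR peaks not shown, the ths peak and those inside Mef2 hold 2 E-boxes each. The highest Mef2 peak and the sog peak beyond the gene hold none.

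**Figure D1:**
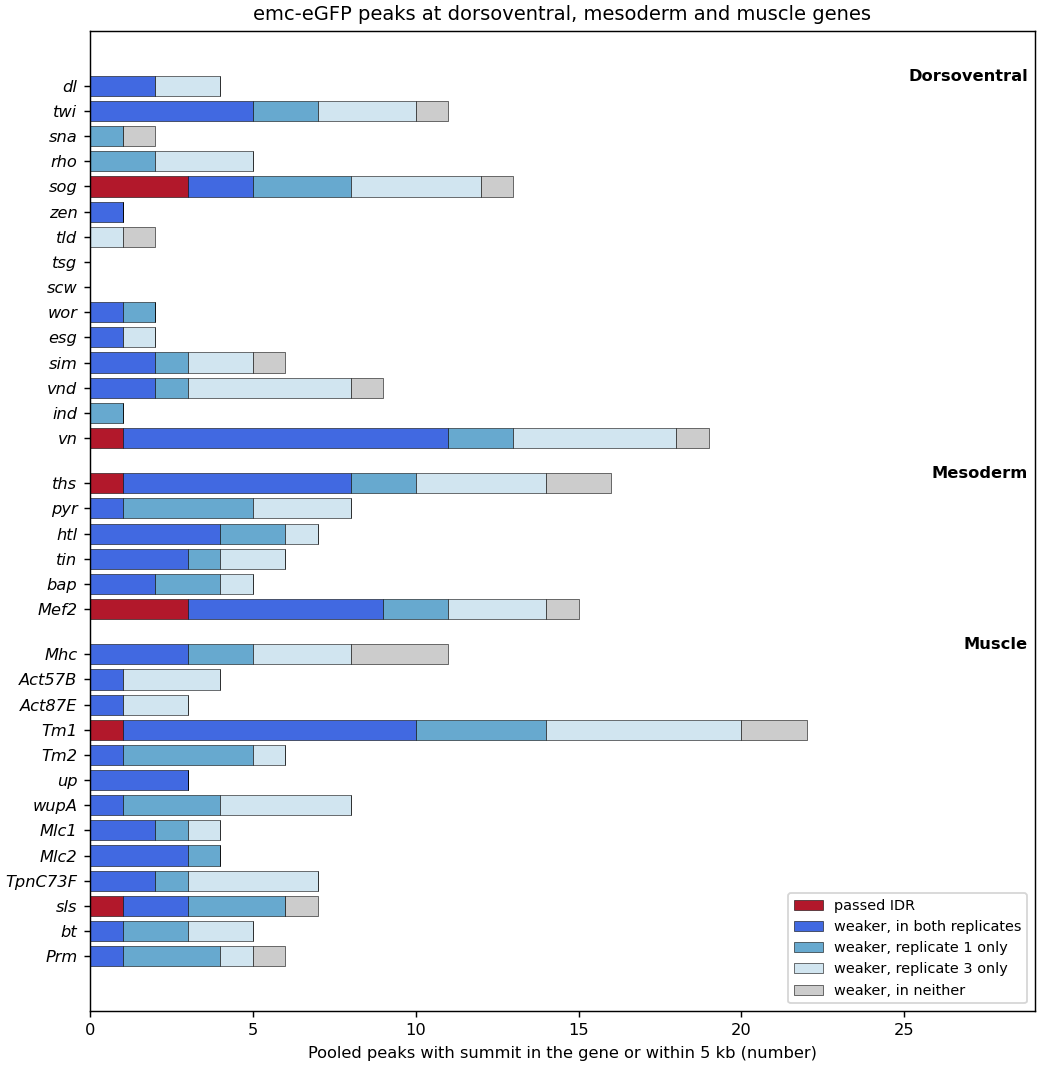
Number of pooled peaks with a summit in each of the 34 genes or within 5 kb of it, by gene and role, with colours for IDR peaks and for weaker peaks found in both replicates, in 1 of them or in neither. IDR peaks stand at 6 genes, sog and Mef2 have 3 each, and tsg and scw have no pooled peak.

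Among the dorsoventral genes, sog had 3 IDR peaks and vn had 1. sog encodes the secreted BMP antagonist Short gastrulation, made in the lateral neural ectoderm. The strongest of its peaks (X 15622895 to 15623274) lay in an intron 3455 bp downstream of its nearest own start, with a pooled signal of 101 (rank 813), 42.6 in replicate 1 (rank 841) and 60.7 in replicate 3 (rank 764). The next (X 15619278 to 15619657) lay in the same gene 7072 bp downstream of that start, with signals of 89.3 pooled (rank 1014), 30.9 in replicate 1 (rank 1501) and 57.2 in replicate 3 (rank 860). The last (X 15599605 to 15599984) was intergenic, 3488 bp beyond the 3′ end of sog and 6261 bp from the nearest start, that of Chsy, a chondroitin synthase gene. Its signals were 69.7 pooled (rank 1548), 36.3 in replicate 1 (rank 1133) and 33.1 in replicate 3 (rank 2449). All 3 were therefore present in both replicates, and none lay at a start of sog.

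vn encodes Vein, a ligand of the EGF receptor. Its IDR peak (3L 5824025 to 5824404) lay in an intron 21449 bp downstream of the start of vn, and the nearest start of any other gene was that of mad2, a spindle checkpoint gene, at 11122 bp. The signal was 70.3 pooled (rank 1520), 25.5 in replicate 1 (rank 2271) and 49.8 in replicate 3 (rank 1144). This peak and the distal sog peak were near the lower end of the IDR list, whose lowest signal was 62.7. Among the 1865 top peaks of replicate 1 alone, vn had another peak instead (rank 1838, signal 28.0), in an intron of the kinase gene S6k.

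The other 13 dorsoventral genes had no IDR peak, among them dl, twi and sna. They had 0 to 11 pooled peaks each, with a median of 2, between 1 and 14 in replicate 1 and between 0 and 13 in replicate 3. The highest was in an intron of sim, the bHLH-PAS regulator of the ventral midline, 4144 bp upstream of its nearest own start. Its signal was 57.9 in the pooled list (rank 2159), just below the lowest IDR peak, 19.0 in replicate 1 (rank 5442) and 45.6 in replicate 3 (rank 1328). The peak was thus well up the list of replicate 3 and much lower in that of replicate 1, and sim was the gene that the top 1865 peaks of replicate 3 alone added to the 6 with an IDR summit.

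The next was 701 bp upstream of dl, the gene of Dorsal itself, in an exon of the non-coding gene lncRNA:CR46204. It had a signal of 45.0 (rank 3386), with 19.1 in replicate 1 (rank 5308) and 24.6 in replicate 3 (rank 4391). A peak in the coding exon of esg, a gene of the Snail family, had 42.0 (rank 3887), with 17.0 (rank 7914) and 21.4 (rank 6017). Both were found in both replicates, in the upper part of the pooled list but below the IDR threshold.

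The sparsest windows were those of short genes. tsg and scw, which encode a BMP-binding protein and a BMP ligand of the dorsal side, had no pooled peak and only 1 peak each in replicate 1. sna had 2 pooled peaks, both intergenic, with 1 found in replicate 1 and none in replicate 3. zen had 1 weaker peak, 146 bp upstream of its start, with a signal of 24.1 (rank 16563), 12.4 in replicate 1 and 10.9 in replicate 3. ind had 1, in its coding exon, with a signal of 21.4. twi, whose annotation reaches over 62952 bp, had 11 weaker peaks, of which 5 were found in both replicates. This span takes in neighbouring genes such as CG42741, and most of the 11 lay nearest to a start of another gene. The highest in the twi window had a signal of 36.4 (rank 5463) and was absent from replicate 1. It stood 369 bp from a start of CG42741, with the nearest start of twi 2796 bp away.

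The mesoderm regulators included the strongest peak of all 34 windows. Mef2, the MADS-box regulator of muscle differentiation, had 3 IDR peaks. The highest (2R 9959777 to 9960073) had a pooled signal of 470 (rank 25), 225 in replicate 1 (rank 22) and 246 in replicate 3 (rank 26). It lay 1066 bp upstream of the first start of Mef2, but 154 bp from a start of Pal1, which encodes a lyase of neuropeptide amidation, and within 500 bp of a start of Pdrg1. By position it was thus a promoter peak of those neighbours, and which of the genes it bears on was not tested.

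The other 2 Mef2 peaks lay within the gene. One (2R 9949019 to 9949398) was in an intron 4445 bp from the nearest own start, with signals of 136 pooled (rank 431), 27.5 in replicate 1 (rank 1907) and 110 in replicate 3 (rank 204). The other (2R 9942793 to 9943172) was in a 5′ UTR exon 1781 bp downstream of an own start, with 101 pooled (rank 808), 49.7 in replicate 1 (rank 619) and 45.9 in replicate 3 (rank 1318). The intron peak thus stood far higher in replicate 3 than in replicate 1, and for the 5′ UTR peak the order was the opposite.

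ths encodes the FGF ligand Thisbe, and its IDR peak (2R 11791652 to 11792031) lay in an intron 1476 bp downstream of its second start. The signal was 99.3 pooled (rank 840), 40.1 in replicate 1 (rank 947) and 59.8 in replicate 3 (rank 787). The position of this peak in the ranking was close in both replicates.

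The 4 other mesoderm genes had weaker peaks only, 5 to 8 each. pyr, the other FGF ligand acting on the mesoderm, had one 43 bp downstream of its start with a signal of 59.8 (rank 2035), 25.8 in replicate 1 (rank 2196) and 30.0 in replicate 3 (rank 2971). Of all the weaker peaks in the 34 windows this was the highest, and its signal was close to the lowest of the IDR list. htl, the gene of the FGF receptor of the mesoderm, had one 293 bp upstream of an own start with 45.7 (rank 3267), 20.6 in replicate 1 (rank 4132) and 25.5 in replicate 3 (rank 4118).

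The highest peak in the window of tin, the NK homeobox gene of heart and visceral muscle, lay 1516 bp upstream of tin and 60 bp from a start of mod(mdg4), a gene of chromatin and insulator proteins. Its signal was 44.6 (rank 3443), 14.4 in replicate 1 (rank 13547) and 31.9 in replicate 3 (rank 2616). A lower peak at the start of tin itself, 333 bp downstream, had 26.4 and was found in replicate 1 alone. bap, the NK homeobox gene of the gut musculature, had 5 weaker peaks, the highest with 30.6 in intergenic DNA 4077 bp beyond the gene.

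**Figure D2:**
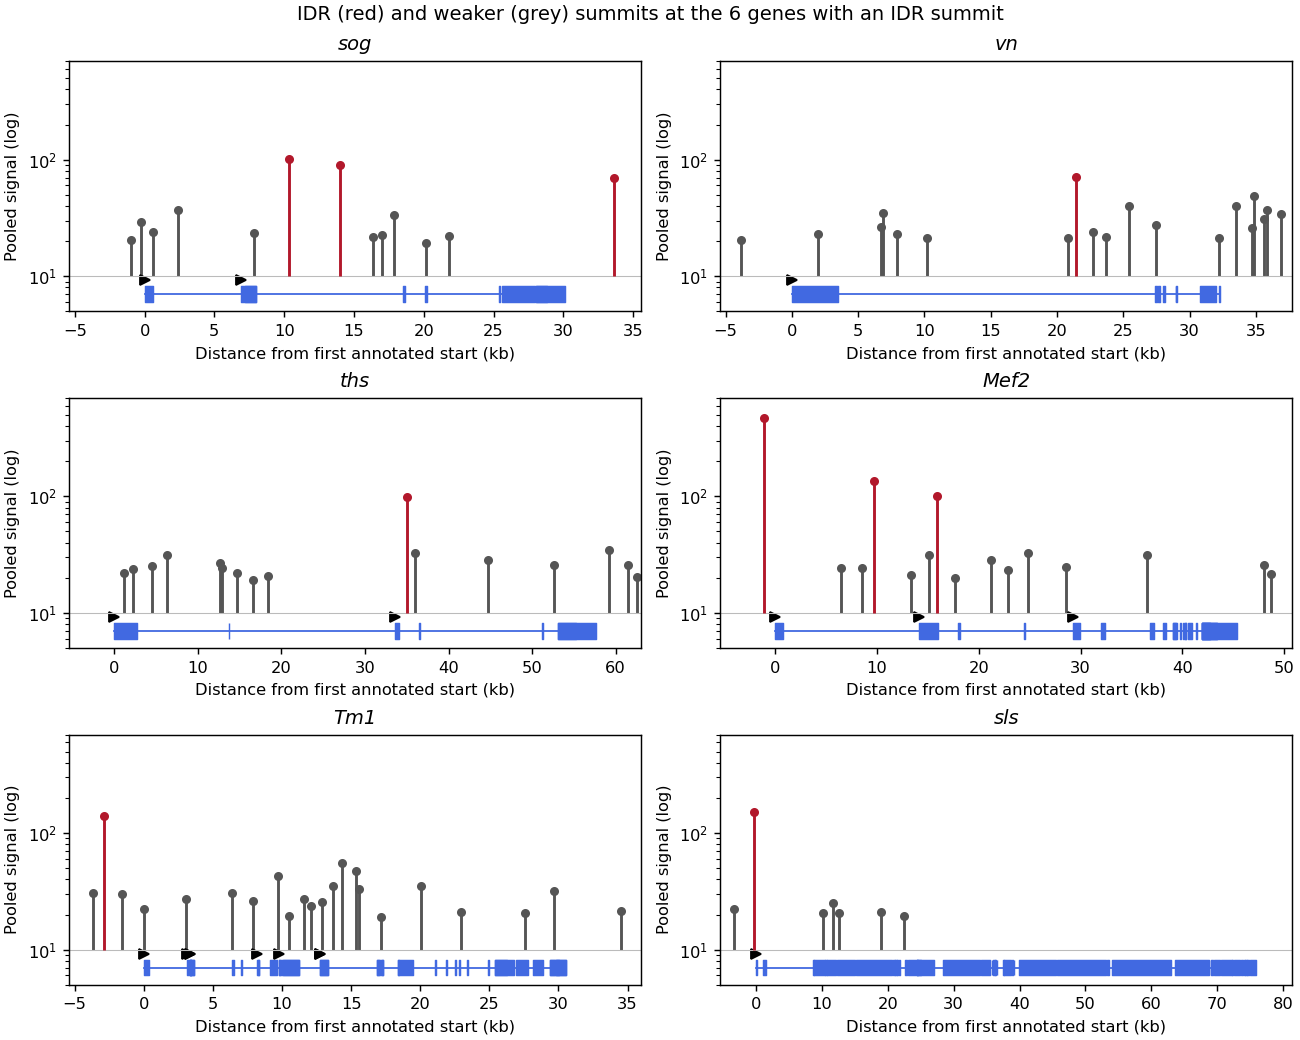
Pooled signal (log scale) of IDR summits in red and weaker summits in grey against the distance in kb from the first annotated start, for the 6 genes with an IDR summit; exons are boxes and arrowheads annotated starts. The summits at sog, vn and ths and the other 2 at Mef2 lie past the first start, whereas the highest Mef2 peak (signal 470), the Tm1 peak (139) and the sls peak (153) lie upstream of it.

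Of the muscle structural genes, sls and Tm1 had 1 IDR peak each. sls encodes Sallimus, a titin-like protein of the sarcomere, and was the single gene of the 34 with an IDR summit at its own promoter. The peak (3L 2115683 to 2116062) was 262 bp upstream of the annotated start and had a signal of 153 pooled (rank 333), 58.1 in replicate 1 (rank 450) and 92.0 in replicate 3 (rank 324). Over the 75931 bp of sls there was no further IDR summit, and its 6 weaker peaks were at or under a signal of 25.1.

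Tm1 encodes tropomyosin, which regulates the thin filament and has forms outside muscle as well. The IDR peak in its window (3R 15275173 to 15275552) was 2857 bp upstream of the gene, and 122 bp from a start of Cp190, which encodes an insulator protein, with CG4338 also within 500 bp. The signal was 139 pooled (rank 417), 45.6 in replicate 1 (rank 733) and 95.3 in replicate 3 (rank 299). Tm1 itself carried weaker peaks along its length, 21 in its window, more than any other of the 34 genes. The highest was in an intron 1597 bp downstream of an own start and had 55.8 (rank 2270), 18.3 in replicate 1 (rank 6205) and 36.9 in replicate 3 (rank 2009).

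The other 11 muscle genes had 3 to 11 pooled peaks each, with a median of 5, and none above a signal of 41.9. That value was in the coding exon of the muscle actin gene Act57B (rank 3899), with 21.8 in replicate 1 (rank 3442) and 23.3 in replicate 3 (rank 4943). bt, which encodes the titin-like Projectin, had a peak of 41.1 (rank 4085) in intergenic DNA 2345 bp upstream, with 22.4 in replicate 3 (rank 5428) and no match in replicate 1. Mhc, the gene of muscle myosin heavy chain, had 40.9 (rank 4137) in an intron towards its 3′ end, with 22.3 in replicate 1 (rank 3198) and 19.5 in replicate 3 (rank 7536). Genes of the troponin complex were at this level or lower, with 36.5 at up (troponin T), 32.8 at TpnC73F (troponin C) and 31.6 at wupA (troponin I).

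The window set the membership of some peaks. The IDR summit farthest outside a gene and still counted was the distal one of sog at 3488 bp. The nearest one not counted was 5489 bp from zen, a homeobox gene of the dorsal side, with a signal of 80.8 (rank 1198), and it lay 217 bp from a start of bcd. These values describe the edge of the rule and were not compared.

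The genes with an IDR summit were all long. The 6 spanned at least 30152 bp, with a median of 38845 bp, beside 3447 bp for the 28 others and 2166 bp for all protein-coding genes. Of 8 of the 34 genes that long, only twi (62952 bp) and bt (52075 bp) had no IDR summit. Among protein-coding genes above the upper quartile of span, those of at least 4998 bp, 6 of 19 of the listed genes had one, 31.6% (interval 12.6 to 56.6), beside 38.3% of all genes of that length. Among the shorter genes it was 0 of 15 (interval 0 to 21.8%), beside 25.3%. This last interval does not hold the value over all shorter genes, but the split by span was chosen after seeing the data. Per 100 kb of window, IDR summits numbered 1.13 over the 34 genes, 1.16 at the dorsoventral, 2.15 at the mesoderm and 0.566 at the muscle genes, beside 1.63 in the windows of all protein-coding genes. The values by role rest on 4, 4 and 2 summits.

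By count, introns held more of these IDR summits than promoters did, but per base they held fewer. Of the 10 peaks, 5 were in introns, 50% (interval 18.7 to 81.3), beside 28.3% of all IDR peaks, and 3 were within 500 bp of a start, 30% (interval 6.67 to 65.2), beside 60.9%. One of the others was in a 5′ UTR and one was intergenic. The interval of the intron share holds the value over all IDR peaks, and that of the promoter share holds it too. Introns made up 42.1% of the window bases and promoters 13.4%. Per 100 kb there were 1.34 IDR summits in introns and 2.53 at promoters, beside 0.996 and 6.47 over the genome. Of the 3 promoter peaks only that of sls was at a start of a listed gene. The other 2 were at Pal1 and Cp190.

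All 10 peaks were found in both replicate lists, as were 1854 of the 1865 IDR peaks. The rank was better in replicate 3 for 7 of them and in replicate 1 for 3. Within the 1865 top peaks of replicate 1 alone, 8 of the 10 were found, without the vn peak and the Mef2 intron peak. In replicate 3 alone it was 9, without the distal sog peak. The same counts over all IDR peaks were not taken. Counted by gene, the top peaks of replicate 1 alone lay at 6 of the 34 genes, beside 28.6% of all genes, and those of replicate 3 alone at 7, beside 28.5%.

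**Figure D3:**
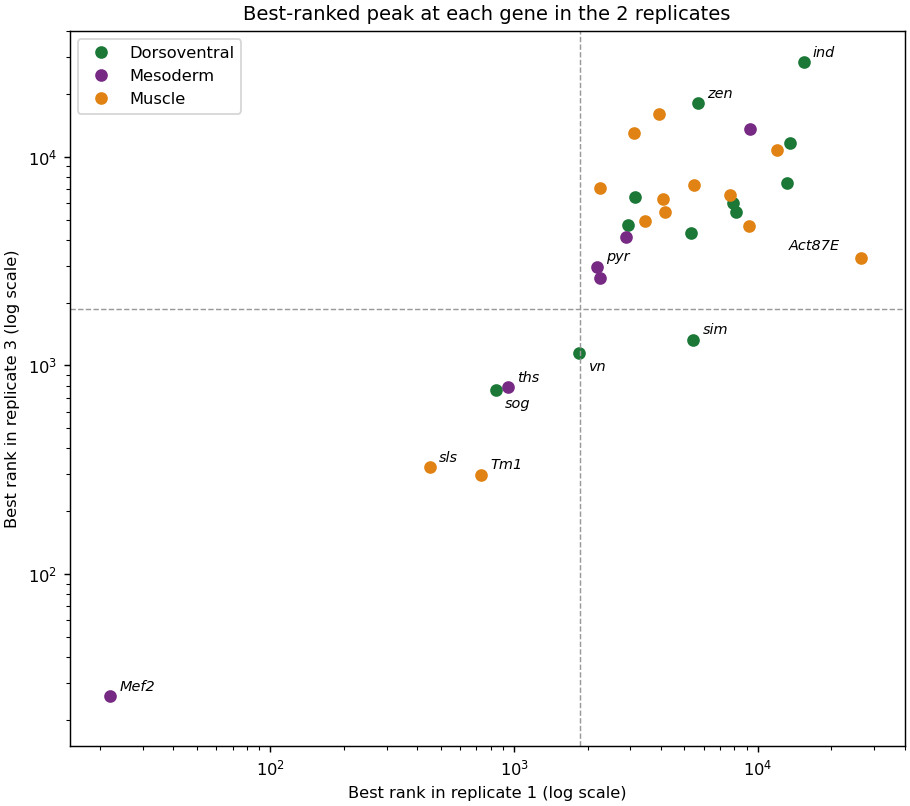
Best rank of any peak in each gene's window in replicate 1 (horizontal, log scale) against replicate 3 (vertical, log scale), for the 31 genes with a peak in both lists, coloured by role; dashed lines mark rank 1865. Mef2 stands apart at ranks 22 and 26, sls, Tm1, sog and ths follow, and Act87E is at 26569 in replicate 1 and ind at 28453 in replicate 3.

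Below the threshold nearly every gene had a peak, as did most genes in the genome. A weaker summit lay in or within 5 kb of 32 of the 34 genes, 94.1%, beside 92.8% of all protein-coding genes. A weaker peak found in both replicates was present at 28 of them, 82.4% (interval 65.5 to 93.2), beside 71.3%. These were 9 of 15 dorsoventral, 6 of 6 mesoderm and 13 of 13 muscle genes, and the interval over the 34 genes holds the background. By role the intervals were 32.3 to 83.7, 54.1 to 100 and 75.3 to 100, and only that of the muscle genes does not hold 71.3%. The median span of the 34 genes was 6452 bp, beside 2166 bp for all genes, and this share was not taken by gene length. The 6 dorsoventral genes without one were sna, rho, tld, tsg, scw and ind.

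The windows held 211 different weaker peaks, 73 at dorsoventral, 53 at mesoderm and 85 at muscle genes. Their median signal was 24.6, the same as over all weaker peaks, and 3 exceeded 50, those at pyr, sim and Tm1. The count above 50 was not taken over all weaker peaks, so no excess or lack is read from it. Per 100 kb there were 21.1 at dorsoventral, 28.4 at mesoderm and 24.0 at muscle genes, beside 22.6 in the windows of all protein-coding genes. In both replicates 79 were found, 37.4% (interval 30.9 to 44.3), beside 39.4% of all weaker peaks. The share was 35.6% at dorsoventral, 43.4% at mesoderm and 35.3% at muscle genes. A further 49 were found in replicate 1 alone, 66 in replicate 3 alone and 17 in neither. Sharing was thus as over the genome, within the interval, and their median −log10 q was 0.138, beside 0.137 over all weaker peaks.

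Within 500 bp of an own start there was a weaker summit at 18 of the 34 genes, 52.9% (interval 35.1 to 70.2), beside 41.7% of all genes, which the interval holds. They were 7 dorsoventral, 3 mesoderm and 8 muscle genes. Of the 23 summits, 9 were found in both replicates, 3 in replicate 1 alone and 11 in replicate 3 alone. The 8 genes with one found in both were zen, wor, pyr, htl, Act87E, Tm1, up and wupA. At 15 genes, sna, sim, Mef2 and ths among them, neither an IDR nor a weaker summit lay at an own start. The counts of 8 and of 15 genes were not taken over all protein-coding genes, so no excess or lack is read from them. Counting starts of neighbouring genes too, the windows held 43 weaker promoter peaks, of which 20 were found in both replicates, 46.5%, beside 49.5% over the genome. By role it was 3 of 13 at dorsoventral genes, with 10 in replicate 3 alone, 5 of 6 at mesoderm genes, with 0 in replicate 3 alone, and 12 of 24 at muscle genes, with 8. The mesoderm count holds neighbouring peaks near a mod(mdg4) start, with summits at 3R 21377461 and 21377662, whose best match in each replicate was the same. A difference between the roles was not tested.

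The genomic classes of the weaker peaks were counted by role. At muscle genes 36.5% were in coding exons (31 of 85, interval 26.3 to 47.6), beside 17.8% at dorsoventral genes, 17.0% at mesoderm genes and 20.5% of all weaker peaks. Introns held 22.4% at muscle, 43.8% at dorsoventral and 50.9% at mesoderm genes, beside 33.3% overall. Coding exons made up 36.1% of the bases of the muscle windows and 13.8% of the genome, so the coding share of muscle peaks was close to that of the bases. The coding shares at dorsoventral and mesoderm genes were close to each other, and no difference between roles was tested. Per 100 kb of coding bases there were 24.3 weaker peaks at muscle, 28.3 at dorsoventral and 50.8 at mesoderm genes, beside 30.3 over the genome. The mesoderm value rests on 9 peaks.

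The coding share at muscle genes was then taken in each replicate list. In that of replicate 1 it was 44.3% (39 of 88 peaks that overlapped no IDR peak) and in that of replicate 3 22.6% (21 of 93), beside 21.8% and 17.8% over the genome. Of the 31 pooled peaks in coding exons of muscle windows, 9 were found in both replicates, 14 in replicate 1 alone and 5 in replicate 3 alone. Mhc had 7 of these summits in its window, more than any other muscle gene. The part of the library in this was not tested.

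**Figure D4:**
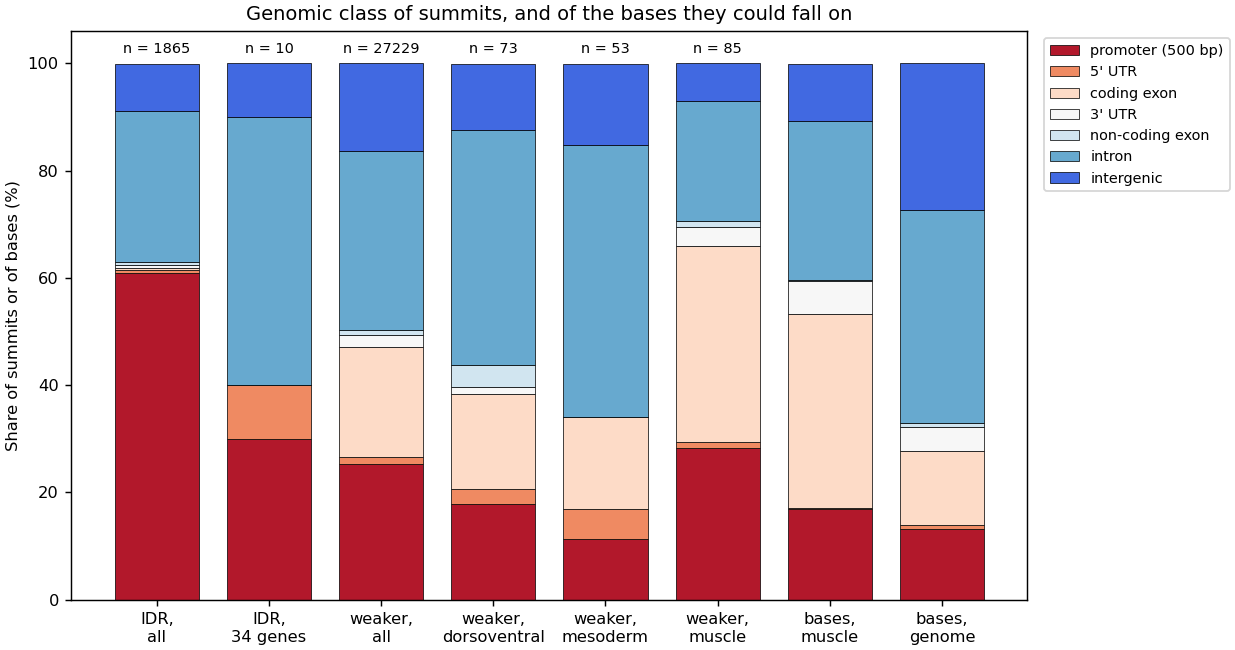
Share in percent of summits in each genomic class, for all IDR peaks, the 10 at the listed genes, all weaker peaks and the weaker peaks of each role, with the share of bases in the muscle windows and in the genome. Coding exons take 36.5% of weaker summits and 36.1% of bases in the muscle windows, and promoters 30% of the 10 IDR summits against 60.9% of all.

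The sequences under the summits were searched on both strands for motifs of the factors of this programme, in windows of 201 bp. An E-box, CANNTG, was in 5 of the 10 IDR windows, beside 63.4% of all IDR windows, and in 63.0% of the 211 weaker windows, beside 67.3% of all weaker windows. The 3 forms searched apart are also counted within it. CATATG and CAGCTG were in none of the 10, beside 7.40% and 10.3% of all IDR windows. CAGGTG, the form bound by Snail, was in 1, the Mef2 intron peak, beside 5.84%. Among the weaker windows CATATG was in 5.21%, CAGCTG in 7.11% and CAGGTG in 11.4%, beside 5.33%, 11.6% and 10% of all weaker windows.

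TCAAGTG ends in a form of the E-box, and the other motifs hold none in their fixed letters. The Dorsal motif GGGAAANCC, the Zelda motif CAGGTAG, the Tinman motif TCAAGTG and the Mef2 motif were in none of the 10 windows. Over all IDR windows the shares were 0.751%, 0.965%, 3.11% and 9.38%, so a count of 0 in 10 says little. In the 211 weaker windows they were in 0.474%, 0.948%, 3.79% and 3.79%, beside 0.826%, 1.43%, 3.83% and 4.33% of all weaker windows. GAGAG, the core of the GAGA factor motif, was in 1 of the 10, the vn peak, beside 23.9%. The replication-related element, TATCGATA, was in none, beside 5.31%, and in 0.948% of the weaker windows, with the mod(mdg4) peak printed above among them. The mean GC content of the 10 windows was 36.3% ± 5.71 (SD, n = 10), beside 37.9% ± 6.55 for all IDR windows, and that of the weaker windows was 46.8% ± 9.14, beside 46.4% ± 9.02.

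Further genes of the same pathways, 80 in 4 lists chosen with earlier results of these data known, were counted in the same way. An IDR summit lay in or within 5 kb of 34 of the 80, 42.5% (interval 31.5 to 54.1), beside the 28.6% of all protein-coding genes given above. These genes too are long, and above the same quartile of span it was 24 of 49, 49.0%, beside 38.3%. No interval was taken for this count by length, so no excess is read from it. At an own start it was 8 of the 80, 10%, beside 10.6% of all genes.

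Of the Toll pathway, which carries the ventral signal to Dorsal, 4 of 13 genes had a summit. They were the inhibitor gene cact (signal 180), the kinase gene pll (99.6), the Rel gene Dif (76.2) and the adaptor gene tub (63.1), and for 3 of the 4 it was at an own start. The exception was Dif, whose peak was 66 bp from a start of CG15141 and 17624 bp from one of Dif. Of the BMP gradient list 10 of 19 had one. The highest were in the windows of ush (871), which encodes a zinc finger cofactor of the dorsal ectoderm, the ligand gene gbb (484), the Smad gene Med (382) and the repressor gene brk (146). The ush peak was 4883 bp from a start of ush and 1415 bp from one of cbt. The gbb peak was 1137 bp from gbb and 95 bp from asRNA:CR45928. The Med peak was 5125 bp from Med and 11 bp from Mnat9. Only 1 of the 10 genes had a summit at an own start.

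Of 24 genes of mesoderm and myoblast fusion, 9 had an IDR summit, the highest at mbc (159) and kirre (145), both of myoblast fusion, the FoxF gene bin (141) and zfh1 (119). The mbc peak was 155 bp from mbc and 11 bp from Nup98-96, and the kirre peak was in an intron 45942 bp from a start of kirre and 2575 bp from one of CG32795. Of 24 further genes of muscle structure 11 had one, the highest at Strn-Mlck (308), Msp300 (265), stck (236) and tmod (199). The summit counted for zormin (153) is the sls promoter peak described above, 35827 bp from a start of zormin. That peak is thus counted both here and among the 34 genes. The Strn-Mlck peak was 66 bp from CG8320 and 2976 bp from Strn-Mlck. In each of these lists 2 genes had it at an own start. The share was thus above that of the 34 genes in all 4 lists, and the difference was not tested because both sets were chosen with results known.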

How the data were processed

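The deposited dm6 files are narrowPeak lists made by the authors, 1 for each of replicates 1 and 3, 1 pooled over both and 1 that passed their IDR threshold. The signal of each peak is the authors' deposited value, scaled by their caller. The lists also give −log10 q-values deposited by the authors, which broke ties in ranking. The aligner, the caller and the IDR cutoff were not given in the sources used here, and neither was read depth. Each replicate list stops at 30000 peaks, a round number. Lists on dm3 were not used.

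Genes came from Ensembl release 115 (annotation 6.54), and sequence from the Release 6 assembly. All 34 symbols matched. Peaks on 6 chromosomes were kept. A summit within 500 bp of any start was a promoter summit. Failing that it was put, by the first that held it, in a 5′ UTR, a coding exon, a 3′ UTR, an exon of a non-coding gene, an intron or intergenic DNA. Peaks overlapped from 1 bp, and a peak was in both replicates when it overlapped a peak of each list. A pooled peak that overlapped an IDR peak without being equal to it was in neither class, which left out 1 at sog and 1 at Mef2. For genes without an IDR summit, the 3 of highest signal per role were named with values in every list, and other genes, such as those with no peaks, were named after their values were seen. The pathway lists name up to 4 genes by signal. Of 80 pathway symbols, 2 matched through synonyms. The genes and lists were chosen with earlier results of these data known.

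With 1 group no test between groups was possible, and counts stand beside those over all genes or peaks. Alternatives changed the window, the overlap, the promoter distance, the threshold and the replicate list. The split by gene span, the count by q-value, the densities per class of bases and the class shares by role and replicate were chosen after seeing the data. Tissue markers cannot be checked in such data. The counting steps were tested on simulated peaks. Tables were made in pandas 2.3.3 and numpy 2.4.6 under Python 3.11.15, intervals in scipy 1.17.1 and plots in matplotlib 3.10.9.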

Additional observations from a re-analysis of the deposited data

How the results depend on the processing

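With windows of 1 kb or 10 kb, any overlap of the peak interval, or the 932 stronger IDR peaks, 5 to 7 of the 34 genes had an IDR peak (main count 6). Over all protein-coding genes the share was 16.3% at 1 kb, 39.7% at 10 kb, 29% with any overlap and 16.8% with the stronger peaks. At 10 kb the 7 genes were 20.6% (interval 8.7 to 37.9), which does not hold 39.7%. The reading of no difference within 5 kb thus does not extend to 10 kb. The 932 stronger peaks left out vn, and 10 kb added zen. Counting only summits inside the genes gave 6 IDR summits at 4 genes, against 10 at 6. The promoter share of the IDR summits was 20% with promoters of 250 bp, which leaves out the sls summit at 262 bp and with it the single own-promoter peak, and 42.9% among the 932 stronger peaks. The top peaks of 1 replicate alone lay at 6 to 7 genes, with 10 summits in each case and a promoter share of 30 to 40%. The share of weaker peaks found in both replicates depended on the overlap that counts. It was 37.4% with 1 bp, 29.9% with an overlap of at least 50% of each peak and 19.9% with summits within 100 bp, and over all weaker peaks 39.4%, 31.0% and 23.5%. The coding exon share of weaker peaks, 25.1% in the pooled list, was 17.3% without replicate 1 and 28.3% without replicate 3, and over the genome 20.5%, 17.8% and 21.8%. The causes were not tested. No paired analysis was possible because there was 1 group. Depth is unknown, so a gene without a peak is a gene where none was listed, and not one shown to be unbound.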
